A study of Rattus norvegicus with 6 samples.

Results

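The genes described here are 7 that cells use to stop dividing or that answer to the tumour suppressor p53. They were taken by name, namely Cdkn1a, Cdkn2a, Cdkn2b, Cdkn1c, Gdf15, Trp53inp1 and Mdm2, and all 7 of them are among the 32883 genes of the count tables, where Trp53inp1 is listed as Tp53inp1. The data are single-cell RNA sequencing (10x Genomics 3' chemistry) of pancreatic islet preparations from 6 male Wistar rats, 2 in each of 3 groups. The young rats were 2 months old on a normal diet, the old rats were 20 months old after 18 months on the normal diet, and the HFHF-old rats were 20 months old after 18 months on a high-fat, high-fructose (HFHF) diet. All preparations were made with collagenase P and a density gradient, and each library is taken as 1 rat. The 2 groups of 20 months were fed from the age of 2 months on, so the young rats are also the state from which both started.

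Cells divide when cyclin-dependent kinases (CDKs) release the E2F factors from the retinoblastoma protein. Cdkn1a (p21) and Cdkn1c (p57) bind and inhibit several cyclin-CDK complexes, whereas Cdkn2a (p16) and Cdkn2b (p15) bind CDK4 and CDK6. Cdkn2a also encodes p19Arf, which restrains Mdm2, and counts at the 3' end cannot tell the products of that locus apart. Mdm2 is the ubiquitin ligase that degrades p53 and is itself a p53 target, Trp53inp1 is a p53-induced nuclear protein, and Gdf15 is a secreted stress cytokine induced by p53 and by the ATF4 and CHOP arm of the stress response. Cdkn1a, Cdkn2a and Cdkn2b are widely used as markers of senescence, a lasting growth arrest, and Cdkn2a is known to limit the renewal of beta cells with age.

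Promoter windows at annotated starts of Cdkn1a and Gdf15 are shown because these genes are the textbook targets of the p53 and the stress pathways named above. Counts at the 3' end do not show which start of a gene is used in these cells. The windows run from 250 bases before to 50 bases after the transcription start, are taken from RefSeq on the rat build GRCr8, and were available for 5 of the 7 genes. Capitals in the Cdkn1a window mark a match to a p53 half-site and, in the Gdf15 window, matches to TATAAA and to GGGCGG, searched on both strands.
Cdkn1a, chr20:7150682-7150981, plus strand: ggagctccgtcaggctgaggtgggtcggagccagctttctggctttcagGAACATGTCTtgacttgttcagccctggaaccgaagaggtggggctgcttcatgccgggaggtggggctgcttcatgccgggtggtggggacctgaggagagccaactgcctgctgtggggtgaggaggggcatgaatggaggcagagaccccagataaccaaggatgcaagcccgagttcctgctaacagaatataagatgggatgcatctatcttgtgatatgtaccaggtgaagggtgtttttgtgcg
Gdf15, chr16:18839015-18839314, plus strand: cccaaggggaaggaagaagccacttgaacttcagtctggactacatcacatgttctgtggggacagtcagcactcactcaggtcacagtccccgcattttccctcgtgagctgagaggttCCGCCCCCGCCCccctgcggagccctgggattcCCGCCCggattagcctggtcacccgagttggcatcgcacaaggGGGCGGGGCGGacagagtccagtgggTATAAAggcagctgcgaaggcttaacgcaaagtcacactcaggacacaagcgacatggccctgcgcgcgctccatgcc
The half-site match begins 201 bases before the RefSeq start taken for Cdkn1a, and 7.98% of the 33469 windows of the same length hold at least 1. Whether that is the main start of the gene was not tested. The Cdkn1a window holds neither TATAAA nor GGGCGG, and the Mdm2 window, which is not printed, holds no p53 half-site. The table holds 2 starts for Gdf15, and the window of the second is printed. TATAAA begins 28 bases before that start (14.2% of windows), and GGGCGG occurs 5 times in its window (33.1% of windows hold it), whereas the window of the first start holds neither. Neither Gdf15 window holds the p53 half-site or TGATGNAA, the core of the ATF4 and CHOP element (3.98% of windows). A match is a description of the letters only, and the lack of one says only that these letters are not in the window.

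After the filters 75201 of 78024 barcodes were kept, between 7381 and 17443 per rat, with medians of 2537 to 9391.5 unique molecular identifiers (UMIs, each 1 captured transcript) per cell. Pairs of libraries shared 20 to 64 barcodes, at most 0.623% of the smaller library. Clusters were named from marker genes, and a name such as macrophage-like says only that. The libraries differed in make-up, since 69.5% of the cells of HFHF-old replicate 2 were natural killer (NK)-like and only 4 were macrophage-like. A class was used in a rat with at least 10 of its cells, which left HFHF-old replicate 2 out of the islet, ductal, macrophage, smooth muscle and mesothelial classes. The endocrine class included a cluster of 2793 cells that came to 98.6% from young replicate 2. Levels are given as CPM, the UMIs of a gene per 1000000 UMIs of the class in that rat, and replicate 1 of a group is always named before replicate 2.

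In all cells kept, Cdkn1a was found in 8.74% of cells with 11508 UMIs, Cdkn2a in 1.28% with 1150 UMIs, Cdkn2b in 1.82% with 1798 UMIs and Cdkn1c in 8.01% with 13958 UMIs. Gdf15 was found in 5.21% of cells with 10072 UMIs, Trp53inp1 in 8.80% with 9227 UMIs and Mdm2 in 32.8% with 51515 UMIs. The genes were unevenly spread over the cell classes. Cdkn1a was highest in lining and stromal classes, with a mean of 88.9 ± 31.3 CPM (SD, n = 5 rats) in ductal-like cells, 77.7 ± 59.7 (n = 6) in endothelial-like cells and 58.1 ± 40.7 (n = 5) in smooth muscle-like cells, and lowest among classes with 5 or more rats in NK-like cells at 4.74 ± 2.76 (n = 6). Cdkn1c was highest in fibroblast-like cells, at 92.8 ± 38.0 (n = 6), against 0.934 ± 0.280 (n = 6) in T-like cells. Gdf15 was highest in macrophage-like cells at 69.8 ± 50.9 (n = 5), followed by ductal-like cells at 38.8 ± 27.2 (n = 5). Mdm2 and Trp53inp1 were both highest in the B lineage-like cells, at 175 ± 76.5 and 50.7 ± 23.7 (n = 6). Cdkn2b had its highest mean in ductal-like cells at 15.7 ± 15.01 (n = 5), but HFHF-old replicate 1 stood there at 39.1 on 35 UMIs, and without it the mean was 9.90 ± 8.58 (n = 4), beside 8.82 ± 5.62 (n = 6) in fibroblast-like cells. The ductal-like cells of that library also held acinar markers at 108654 CPM against 8351 to 20153 in the other 4, and its estimated share of free RNA there was 100%, and their part in its ductal-like values was not tested. Shares of free RNA were scaled within each library from hormone and enzyme transcripts, which were 11.2% of the UMIs of these cells. Cdkn2a was low throughout, with its highest means in PP-like cells at 5.31 ± 3.96 (n = 5), alpha-like cells at 4.87 ± 2.62 (n = 5) and T-like cells at 4.22 ± 2.24 (n = 6).

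**Figure D1:**
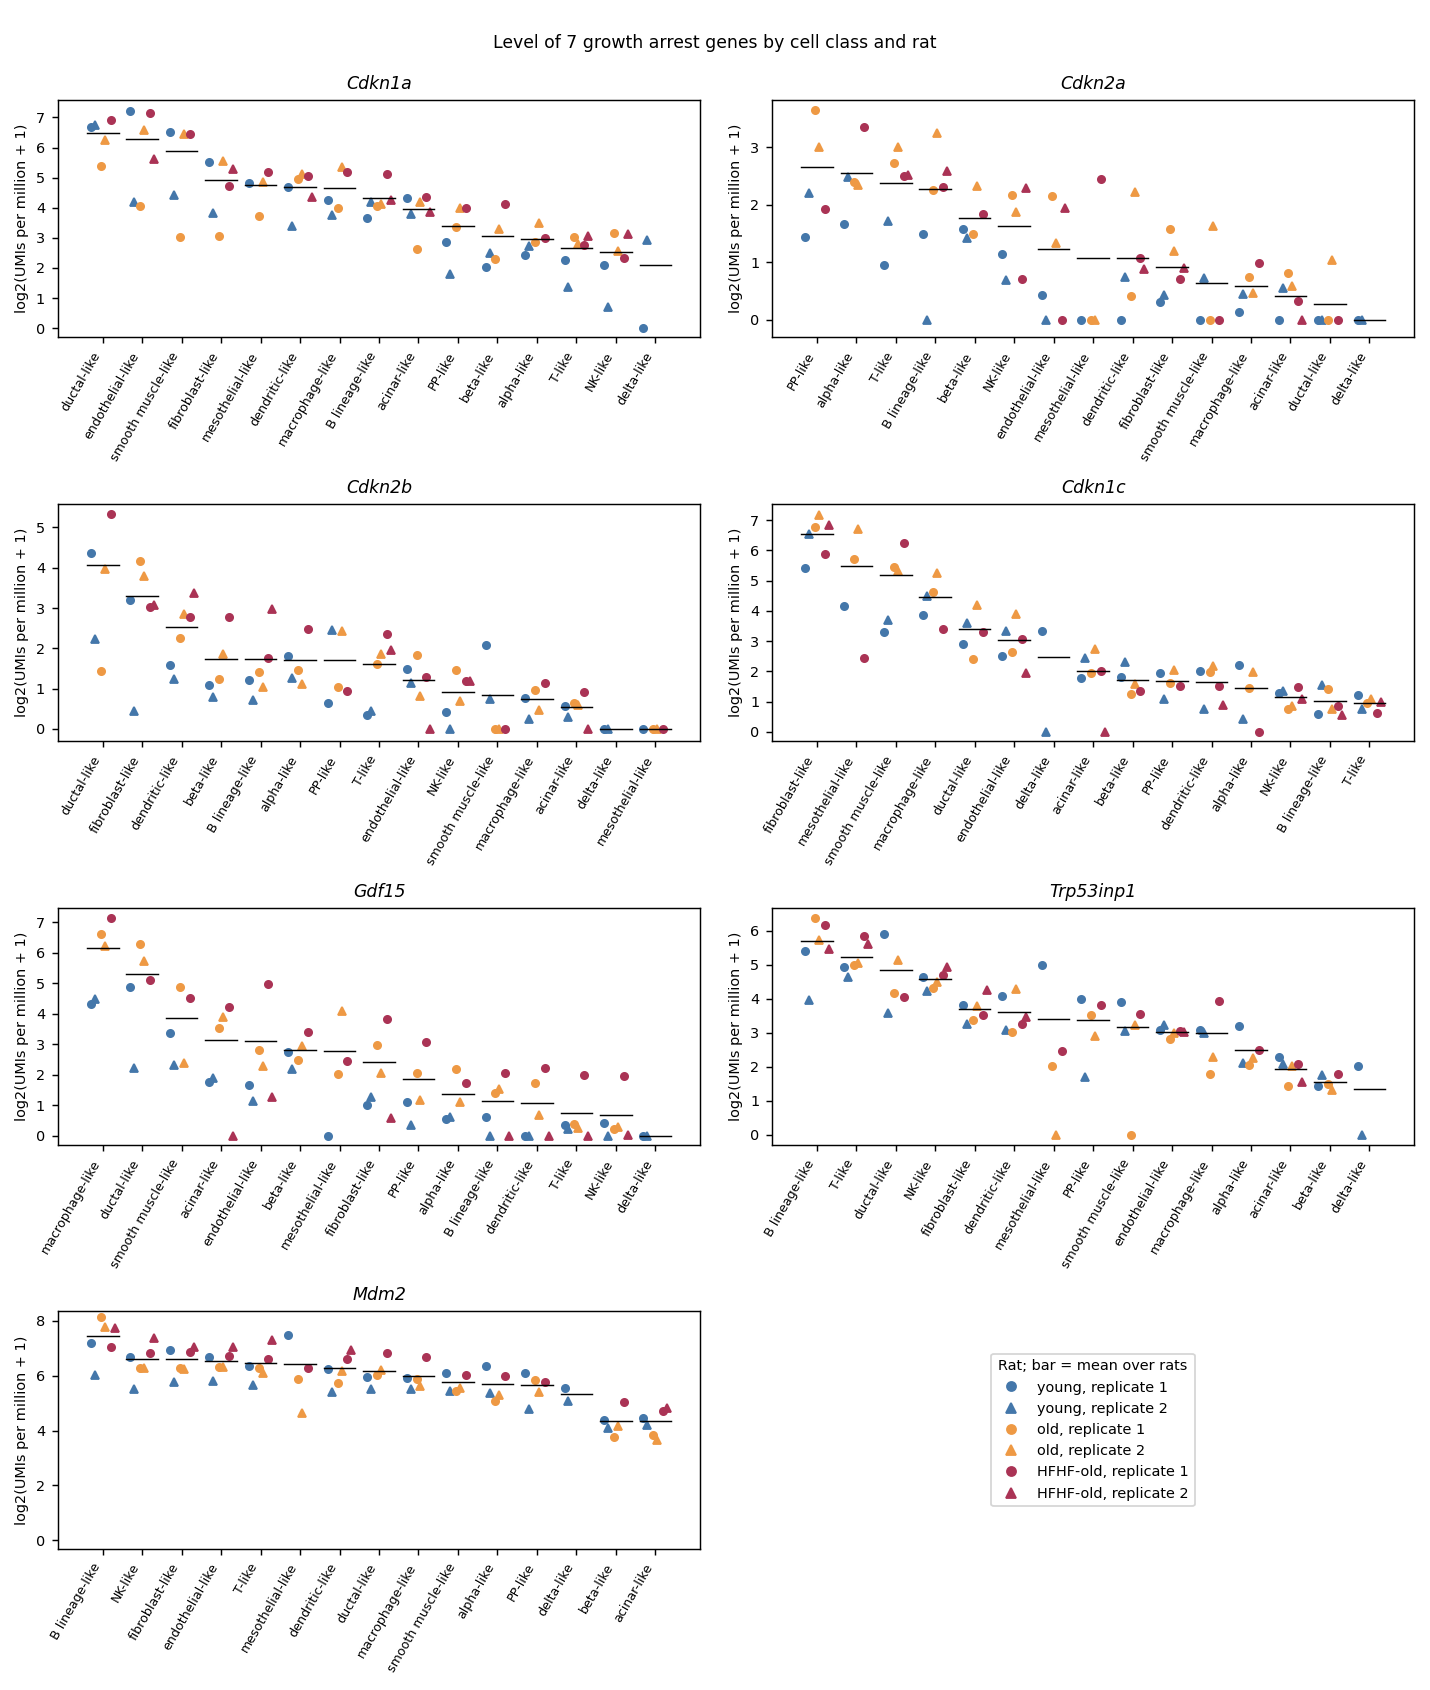
Level of each gene by class and rat, as log2(CPM + 1), with classes in the order of their mean level, one point per rat and a bar at the mean over rats. Cdkn1c stands highest in fibroblast-like cells (mean 92.8 CPM), Gdf15 in macrophage-like cells (69.8) and Mdm2 in B lineage-like cells (175), and the rats of one group often lie as far apart as the groups.

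Neighbouring classes in these orders were compared over rats with an exact two-sided sign-flip permutation test of log2(CPM + 1), 97 pairs in all. With so few rats no pair could pass after adjustment over the 97, so that the adjusted values say nothing of the order, and 3 pairs had an unadjusted p of 0.03125, the smallest that 6 rats allow. Those 3 were Mdm2 in B lineage-like above NK-like cells, Trp53inp1 in NK-like above fibroblast-like cells and Cdkn2a in NK-like above endothelial-like cells, each in 6 of 6 rats. By Pearson's r of log2(CPM + 1) over the means of 15 classes, the gene most like Cdkn1a among 12968 genes was Marcksl1 (r = 0.9499), followed by the stress factor Atf3 (0.926). For Cdkn1c it was Aebp1, a connective tissue gene (0.968), for Gdf15 the platelet and macrophage chemokine Pf4 (0.877), for Cdkn2a the cytokinesis kinase Cit (0.847), for Cdkn2b Angel1 (0.852), for Trp53inp1 Dhodh (0.925) and for Mdm2 Efr3a (0.949). These r values are over classes that share libraries and are given without a test.

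For the question of age, old rats were compared with young rats in 14 classes with 1 fit per class of UMIs summed per rat (edgeR, quasi-likelihood test). Of 98 pairs of a gene and a class, 71 passed the filter on low counts, and the other 27 are described by their levels only. A gene that passed only through the group where it is high had to differ. A test was called where the adjusted p was under 0.05 and the fold change over 1.5 in either direction. That held for none of the tests of the 7 genes and for 0.122% of all tests in these classes, while 20 had an unadjusted p under 0.05 with edgeR (6.39% of all tests had) and 3 were called by DESeq2, which made 1632 calls over all genes. The median log2 fold change of the 71 tests was 0.61, and that of all tests 0.00077. In the 69 tests with 2 rats in each group, both old rats lay above both young rats in 30 and below them in 3 on the normalised scale of the fit, whereas 17% of all tests were separated upward and 17.9% downward. On the plain scale of CPM the counts were 28 and 6. No share over all genes is given for plain CPM or for single clusters, so counts on those scales have nothing to be set against. The old rats enter both comparisons described here, so that a high or low value in them moves the comparisons in opposite directions.

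Gdf15, the stress cytokine, had the largest median fold change between old and young rats of the 7 genes. Pairs that could pass the filter only through the groups where the gene is high enter such medians, so this rank is no support. In what follows a value in brackets with an SE is a log2 fold change of the edgeR fit. In macrophage-like cells Gdf15 stood at 18.8 and 21.3 CPM in the young rats, 96.3 and 74.2 in the old rats and 138 in HFHF-old replicate 1. Both old rats lay above both young rats, with a log2 fold change of 2.17 (SE 0.182, edgeR adjusted p = 0.0523). Of 19 other settings 7 brought it past the threshold, and the fold change lay between 2.03 and 2.40 in all 19. A Gdf15 UMI was found in 5.48 and 6.71% of the macrophage-like cells of the young rats, 27.9 and 11.8% of those of the old rats and 47.9% of those of HFHF-old replicate 1, at median depths of 3255, 4108, 7469, 2515.5 and 10631 UMIs. With cells thinned to 2000 UMIs, and those under 2000 left out (5109 to 3968 cells in young replicate 1 and 1872 to 1199 in old replicate 2, the most affected), the shares were 3.12 and 3.15, 13.9 and 9.84, and 18.8%. In the T-like cells of the same rats, a class that is not known for Gdf15, the unthinned shares were 0.153 and 0.135, 0.243 and 0.0586, and 2.09%, at median depths of 4685, 6987, 7602, 2893.5 and 6447 UMIs, and the thinned shares were at most 1.17%. The macrophage-like shares lay above this background in every rat.

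The difference in Gdf15 was present in each of the 4 clusters that make up the macrophage-like class. In cluster 4, led by Fcna, F13a1, Stab1 and Cd163, the levels were 27.0 and 30.1 CPM in the young and 122 and 83.4 in the old rats. In cluster 7 they were 12.1 and 17.4 against 113 and 67.6, and in cluster 10, led by Clec7a, C3ar1 and Lyz2 among others, 6.41 and 15.1 against 50.5 and 64.0. Cluster 16 came to 88.9% from HFHF-old replicate 1, where the level was 181, and Gdf15 is itself among its leading genes. Without this cluster the log2 fold change between old and young rats was 2.16 and the edgeR adjusted p was 0.0409. The macrophage markers summed to 20057 to 26150 CPM in this class in all 5 rats, with 1 of 12 at 0 in each. The mitochondrial percent of these cells was 1.86 and 1.43 in young, 2.67 and 1.91 in old and 3.12 in HFHF-old replicate 1. Its part in the Gdf15 values was not tested.

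**Figure D2:**
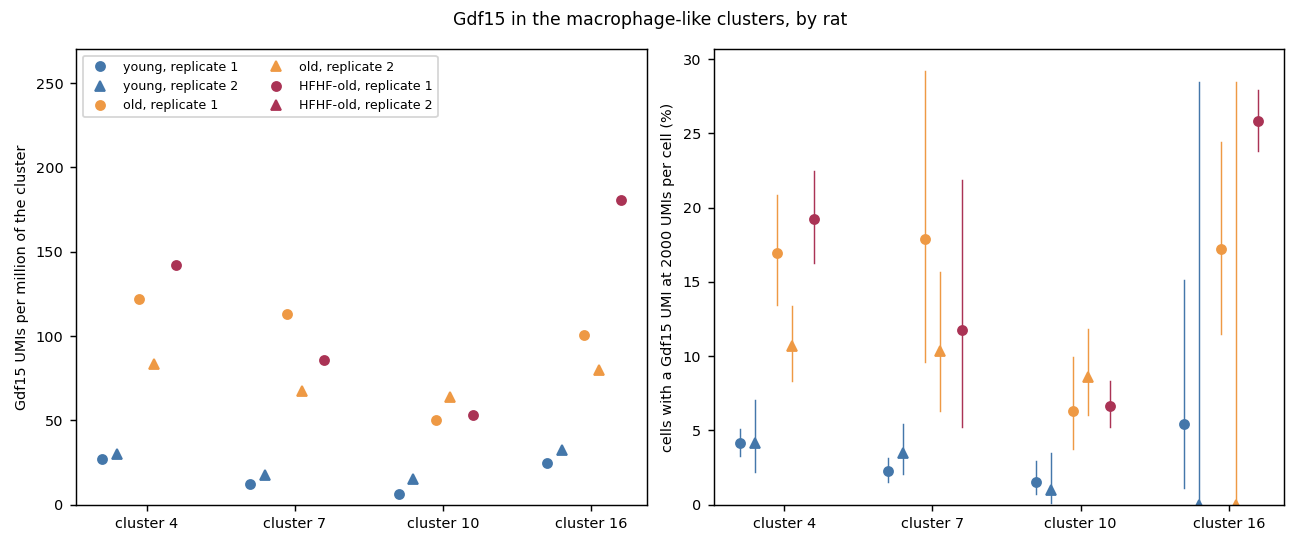
Gdf15 in the 4 macrophage-like clusters, as CPM of the cluster (left) and as the percent of cells with a Gdf15 UMI at 2000 UMIs per cell (right, lines are exact 95% binomial intervals that cover counting error only), one point per rat with at least 10 cells. In cluster 4 the young rats lie at 27.0 and 30.1 CPM and the old rats at 122 and 83.4, and in cluster 16 the young and old rats had few cells (12 to 145).

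Outside macrophages Gdf15 was also higher in old than in young rats in acinar-like cells, at 10.6 and 13.8 against 2.42 and 2.72 CPM (log2 fold change 2.77, SE 0.908, edgeR adjusted p = 1.00), and in alpha-like cells, at 3.52 and 1.15 against 0.467 and 0.530 (2.46, SE 0.955, adjusted p = 1.00). The alpha-like values rest on 3 and 3 UMIs in young and 10 and 7 in old rats. This pair could pass the filter only through the other groups, so its fold change and p are no support. The share of alpha-like cells with a UMI overlapped, at 0.508 and 0.820% in young and 3.28 and 0.616% in old rats. In ductal-like cells the values were 28.2 and 3.69 in young and 76.2 and 52.4 in old rats, and in fibroblast-like cells 0.993 and 1.42 against 6.76 and 3.16. In dendritic-like cells no Gdf15 UMI was found in either young rat and 14 and 3 UMIs in the old rats. In all, the fold change was positive in 9 of the 9 classes that passed the filter, and the rats were separated in 7. The sign in dendritic-like cells was fixed by the lack of a UMI in the young rats, so this count is no support. Over all 13 classes with 2 rats per group, both old rats lay above both young rats in plain CPM in 9 and below in 0. Dendritic-like cells are among the 9, and no share over all genes is given for this scale, so this count is no support either. Of the Gdf15 UMIs of a library, 44.0 to 83.7% lay in its macrophage-like cells in the 5 libraries that had the class. In acinar-like cells the macrophage markers summed to 3552 and 3943 CPM in the young and 2939 and 1742 in the old rats, and in fibroblast-like cells to 983 and 688 in the young and 1738 and 1913 in the old rats. The part of macrophage RNA in the Gdf15 values of these classes was not tested. In HFHF-old replicate 2, with 4 macrophage-like cells, 1 Gdf15 UMI was found in 8138 NK-like cells (0.0130 CPM), against 18 UMIs in the 846 NK-like cells of HFHF-old replicate 1 (2.91).

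Cdkn2a and Cdkn2b, the inhibitors of CDK4 and CDK6, were higher in old than in young rats in the T-like class. Cdkn2a stood there at 0.927 and 2.28 CPM in young, 5.64 and 7.06 in old and 4.65 and 4.74 in HFHF-old rats (old against young 2.11, SE 0.550, edgeR adjusted p = 0.138). Cdkn2b stood at 0.265 and 0.351, 2.04 and 2.60, and 4.10 and 2.86 (2.97, SE 0.670, edgeR adjusted p = 0.0990). For both genes the 4 old and HFHF-old rats lay above the 2 young rats, on few UMIs (2 and 2 for Cdkn2b in the young, 13 and 14 in the old rats). With so few UMIs in the young rats Cdkn2b could pass the filter only through the other groups. It therefore had to differ, and its fold change and p are no support. The make-up of the class differed as well, since the T cell markers summed to 751 and 500 CPM in the young and 2535 to 2986 in the other 4 rats, and markers of group 2 innate lymphoid cells to 2704 and 1532 in the young and 1068 and 779 in the old rats. In the young rats the innate lymphoid markers thus summed higher than those of T cells, and T-like names a mixed class. The larger of the 2 clusters of the class, led by Il1rl1, Il7r and Icos, had Cdkn2a at 0.965 and 2.29 in young and 6.14 and 7.65 in old rats, and the part of the make-up in the difference was not tested.

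Cdkn2a was also separated upward by age in other classes. In fibroblast-like cells it stood at 0.241 and 0.356 CPM in young and 1.99 and 1.29 in old rats (2.62, SE 0.742, edgeR adjusted p = 0.559), in PP-like cells at 1.72 and 3.60 against 11.5 and 6.97 (1.74, SE 0.645, adjusted p = 0.919), and in B lineage-like cells at 1.83 and 0 against 3.79 and 8.50 (2.83, SE 0.882, adjusted p = 0.329). The UMIs in fibroblast-like cells were 8 and 1 in young and 28 and 9 in old rats. In PP-like cells they were 3 and 13 against 11 and 33, and in B lineage-like cells 7 and 0 against 16 and 49. At 2000 UMIs per cell the PP-like shares overlapped, at 0 and 0.901% against 0 and 1.42%. The B lineage-like log2 fold change was 7.40 without young replicate 1 and 2.03 without old replicate 2. The PP-like one was 2.67 without young replicate 2. The fold change of Cdkn2a was positive in 7 of 7 classes that passed the filter, and the groups were separated in 5. A class low in the young rats could pass the filter through the other groups only, so this count is no support. The same holds for the fold changes and p in fibroblast-like, PP-like and B lineage-like cells given above. Over all 13 classes with 2 rats per group, old lay above young in plain CPM in 8 and below in 0, with no share over all genes to set beside it. Within the 4 fibroblast-like clusters old lay above young in 2 for Cdkn2a, 1 for Cdkn2b and 2 for Gdf15. These clusters took different shares of the class by rat, since cluster 5 held 1722 of 4529 and 42 of 321 cells in young, 245 of 1473 and 95 of 2032 in old and 1603 of 3055 and 323 of 1136 in HFHF-old rats, and cluster 9 held 541 and 86, 716 and 658, and 649 and 270. In beta-like cells it stood at 1.98 and 1.67 in young, 1.83 and 4.04 in old and 2.56 in HFHF-old replicate 1, and the groups overlapped. Cdkn2b was higher in old rats in dendritic-like cells as well, at 1.98 and 1.35 against 3.79 and 6.21 (1.64, SE 0.582, adjusted p = 0.999), and in fibroblast-like cells, at 8.24 and 0.356 against 16.9 and 12.8, although the young rats differed widely from each other. The dendritic-like pair could likewise pass the filter through the other groups only, so its fold change and p are no support.

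Cdkn1a, the p53-induced inhibitor, was separated upward in old rats in 7 of 13 classes on the scale of the fit and downward in 1. Of all tests 17% were separated upward and 17.9% downward on that scale. The 7 classes all had means below those of the lining and stromal classes. In plain CPM Cdkn1a was separated upward in 5 classes and downward in 1. By the share of cells with a UMI it was higher in 6 and lower in 1. At 2000 UMIs per cell it was higher in 3 and lower in 2, so the rise was not seen on every scale. In T-like cells it stood at 3.84 and 1.58 CPM in young and 7.20 and 5.95 in old rats (1.37, SE 0.488, edgeR adjusted p = 0.270, and 0.22 with finer clusters at resolution 2), and in PP-like cells at 6.32 and 2.50 against 9.38 and 15 (1.93, SE 0.549, adjusted p = 0.444, and 1.10 without old replicate 2). At resolution 2 a cluster of 3056 cells, with Il1rl1, Il7r and Gata3 among its leading genes, was named group 2 innate lymphoid-like and kept apart from the T-like class. The part of this make-up in the T-like values of Cdkn1a was not tested. In ductal-like cells, where the mean of Cdkn1a was highest, the gene went the other way, with 102 and 107 in young and 41.1 and 75.0 in old rats. In the stromal classes the replicates of one group differed more than the groups did. Endothelial-like cells had 148 and 17.5 in young, 15.5 and 95 in old and 142 and 48.0 in HFHF-old rats, and fibroblast-like cells 45.0 and 13.2, 7.40 and 46.5, and 25.6 and 38.2. The genes known to answer to tissue dissociation summed in endothelial-like cells to 18104 and 10533.5, 15844 and 19662.5, and 24723 and 21634 CPM, also lower in young replicate 2 and old replicate 1 than in the other 4 rats, and their part in the spread of Cdkn1a was not tested.

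Cdkn1c, an imprinted gene of the same family, was higher in old than in young rats in mesenchymal and macrophage-like cells. In smooth muscle-like cells it stood at 8.82 and 11.9 CPM in young, 42.8 and 38.8 in old and 75.6 in HFHF-old replicate 1 (2.06, SE 0.487, edgeR adjusted p = 0.666), although old replicate 1 had 24 of these cells and HFHF-old replicate 1 had 17. The estimated share of free RNA in this class was 10.7 and 43.0% in young, 9.02 and 77.3% in old and 65.1% in HFHF-old replicate 1, and with free RNA subtracted the log2 fold change was 0.71. In fibroblast-like cells it stood at 41.3 and 91.4 in young, 109 and 144 in old and 57.8 and 113 in HFHF-old rats, and both old rats lay above both young rats in each of the 4 fibroblast-like clusters. The dissociation genes summed in fibroblast-like cells to 14418.5 and 8819 in young and 19679.6 and 18407 in old rats, and their part in the values of Cdkn1c, Cdkn2a and Cdkn2b there was not tested. In macrophage-like cells the values were 13.6 and 21.3, 23.5 and 36.9, and 9.52 in HFHF-old replicate 1, and old lay above young in 3 of 4 clusters. Beta-like cells went the other way, at 2.54 and 3.94 in young and 1.37 and 1.99 in old rats. The dissociation genes summed in beta-like cells to 1327 and 2079 in young and 935 and 823 in old rats, and most endocrine-like cells of young replicate 2 (2753) came from the cluster that is nearly all that library, and the part of both was not tested. A cluster of 1835 cells that came only from old replicate 2 and stayed without a name held Cdkn1c at 2419 CPM, 3749 of the 5239 Cdkn1c UMIs of that library, with a median of 706 UMIs per cell. It entered no class, and the values above do not contain it.

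Mdm2 and Trp53inp1 were separated by age in the B lineage-like class without passing the edgeR test. With doublets left out their log2 fold changes in this class were larger, at 2.35 and 3.11. Mdm2 stood there at 144 and 63.6 CPM in young, 278 and 218 in old and 132 and 215 in HFHF-old rats (old against young 1.69, SE 0.412, edgeR adjusted p = 0.202), and Trp53inp1 at 41.5 and 14.8, 81.9 and 52.2, and 70.7 and 43.4 (1.63, SE 0.451, edgeR adjusted p = 0.256). The old rats lay above the young rats in both genes. In this class plasma cell markers summed to 886 and 321 CPM in young, 3485 and 3718 in old and 1479 and 1063 in HFHF-old rats, and B cell markers to 1569 and 833, 622 and 324, and 2778 and 2922, so that the balance of both cell types moved with the groups, and its part in these values and in those of Cdkn2a was not tested. The genes of the dissociation response also summed higher there, to 4398 and 2919 in young and 6211 and 4427 in old rats, and their part was not tested either. In macrophage-like cells Trp53inp1 was lower in old rats, at 7.49 and 6.90 in young against 2.41 and 3.85 (log2 fold change -1.14, SE 0.363, edgeR adjusted p = 0.266), and old lay below young in 4 of 4 macrophage-like clusters, while Gdf15 lay above in the same 4. Over all classes tested the median log2 fold changes between old and young rats were 2.15 for Gdf15, 1.77 for Cdkn2a, 1.502 for Cdkn2b, 0.90 for Cdkn1a, 0.80 for Cdkn1c, 0.056 for Mdm2 and -0.047 for Trp53inp1. The medians of Gdf15, Cdkn2a and Cdkn2b include pairs that could pass the filter only through the other groups, so the order of the genes is no support.

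**Figure D3:**
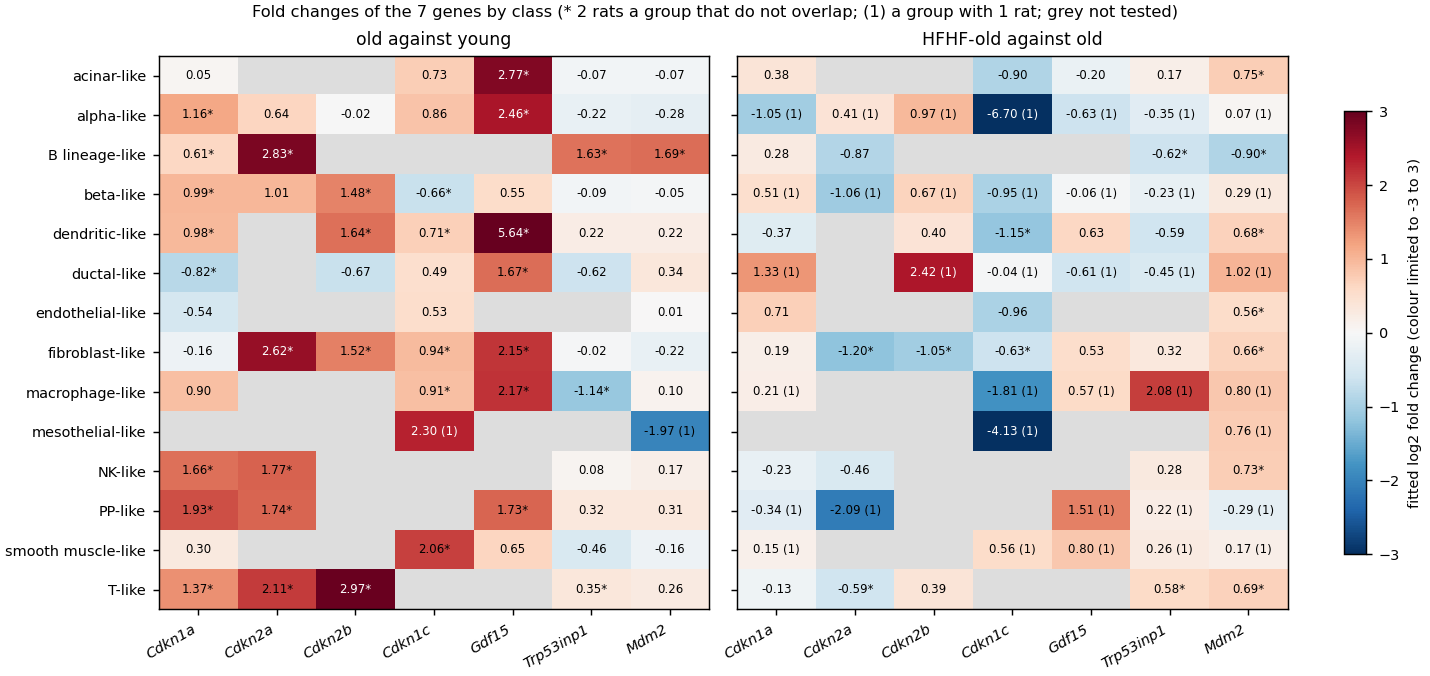
Fitted log2 fold change (edgeR) of each gene in each class, old against young (left) and HFHF-old against old (right). An asterisk marks 2 rats per group that do not overlap on the scale of the fit, (1) marks a group with 1 rat, and grey marks pairs under the filter on low counts. Among the pairs that passed the filter, Gdf15 is positive in 9 of 9 classes on the left and Mdm2 in 12 of 14 on the right. The values for Gdf15 in dendritic-like cells (left) and Cdkn1c in alpha-like cells (right) rest on a group with no UMI.

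For the question of diet at the same age, HFHF-old rats were compared with old rats in the same fits. None of the 71 tests of the 7 genes was called by edgeR (0.0306% of all tests were), and 10 had an unadjusted p under 0.05 (8.16% of all tests had). DESeq2 called 2, with 1016 calls over all genes, and both of the 2, Cdkn1c and Trp53inp1 in macrophage-like cells, rest on 1 HFHF-old rat. Only 34 tests in 7 classes had 2 rats in each group, and in these the HFHF-old rats lay above the old rats in 7 and below in 7, against 20.6% and 21.4% of all tests. On the plain scale the counts were 10 and 5, again with no share over all genes beside them. The median log2 fold change was 0.17 over the 71 tests and -0.0045 over all tests, and the genes differed, with medians of 0.67 for Mdm2, 0.54 for Cdkn2b, 0.53 for Gdf15, 0.20 for Trp53inp1, 0.19 for Cdkn1a, -0.87 for Cdkn2a and -0.95 for Cdkn1c. Pairs that could pass the filter only through the group where they are high enter these medians as well, so their order is no support. Cdkn1c had a negative fold change in 9 of 10 classes. It was separated downward on the scale of the fit in dendritic-like cells, at 1.84 and 0.845 CPM in HFHF-old against 2.96 and 3.49 in old rats, and in fibroblast-like cells, where the plain values given above overlap. The dendritic-like values rest on 10 and 1 UMIs in HFHF-old and 18 and 18 in old rats. The 0.845 lies under the limit that a count of 0 allows there (2.53 CPM).

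Mdm2 accounted for 6 of the 7 separated upward. It stood at 76.7 and 75.8 CPM in old and 114 and 167 in HFHF-old rats in NK-like cells, at 76.1 and 67.8 against 96.5 and 158 in T-like cells, and at 77.3 and 75.2 against 117 and 130 in fibroblast-like cells. The HFHF-old rats also lay above the old rats in acinar-like cells (25.2 and 27.3 against 13.3 and 11.7), dendritic-like cells (96.8 and 123 against 52.8 and 70.4) and endothelial-like cells (105 and 133 against 79.4 and 78.1), and below them on the scale of the fit in B lineage-like cells, where the plain values were 278 and 218 in old and 132 and 215 in HFHF-old rats. The log2 fold changes of the 6 classes lay between 0.56 and 0.75 with edgeR adjusted p from 0.397 to 0.990, and that of the B lineage-like cells was -0.90 with 0.315, so that no difference passed the test. The NK-like cells of HFHF-old replicate 2 came mostly from another cluster than those of the other rats, since cluster 0 held 7466 of its 8138, 36 of 631 and 267 of 1296 of those of the old rats and 2 of 846 of those of HFHF-old replicate 1. In cluster 2, which held the rest, Mdm2 stood at 73.5 and 70.7 in old and 114 and 130.4 in HFHF-old rats. In fibroblast-like cells, whose clusters also differ in share between these groups as given above, Mdm2 was higher in both HFHF-old than in both old rats in each of the 4 clusters, for example at 141 and 134 against 75.5 and 60.9 in cluster 9. The estimated share of free RNA was also higher in HFHF-old than in old rats in some of these classes. It was 13.7 and 10.3% against 5.89 and 2.26% in NK-like cells and 14.5 and 13.97% against 7.38 and 3.05% in T-like cells. Dendritic-like cells had 16.3 and 13.4% against 8.22 and 2.01%, and fibroblast-like cells 12.5 and 63.0% against 8.61 and 3.54%. The hormone and enzyme transcripts behind the estimate were 1.39 and 0.162% of fibroblast-like UMIs in HFHF-old and 1.01 and 0.895% in old rats. HFHF-old replicate 2, at 0.162%, had only 77 acinar-like and 3 beta-like cells, so the shares are not on 1 scale across libraries. In endothelial-like cells the shares overlapped, at 22.6 and 54.8% against 27.2 and 7.10%. B lineage-like cells, where Mdm2 was lower, had 13.4 and 9.58% against 4.04 and 1.38%. The part of free RNA in the Mdm2 values was not tested. The young rats lay on both sides of the old rats in NK-like cells (102 and 44.3), T-like cells (80.9 and 49.0) and fibroblast-like cells (121 and 54.1).

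Trp53inp1 was higher in HFHF-old than in old rats in T-like cells, at 56.6 and 48.6 against 30.7 and 32.3 CPM (0.58, SE 0.190, edgeR adjusted p = 0.350). The clusters of the class differed, since in the larger cluster the values were 60.3 and 50.6 against 30.7 and 32.1, and in the smaller 24.1 and 46.9 against 30.7 and 33.1. The markers of group 2 innate lymphoid cells in the class summed to 1929 and 1533 CPM in HFHF-old against 1068 and 779 in old rats, and the dissociation genes to 10297 and 9618 against 6750.4 and 4011, and the part of both in the Trp53inp1 values was not tested. In macrophage-like cells, with HFHF-old replicate 1 alone, it stood at 14.4 against 2.41 and 3.85, and Cdkn1c at 9.52 against 23.5 and 36.9. Cluster 16 held 1834 of the 3721 macrophage-like cells of that rat against 145 of 959 and 14 of 1872 in the old rats, and in cluster 4, led by Fcna and F13a1 among others, Trp53inp1 stood at 15.8 against 2.56 and 2.36 and Cdkn1c at 11.7 against 24.8 and 35.4. For Cdkn2a the HFHF-old values lay under the old ones in T-like cells, at 4.65 and 4.74 against 5.64 and 7.06, and in fibroblast-like cells, at 0.630 and 0.864 against 1.99 and 1.29, and Cdkn2b in fibroblast-like cells at 7.11 and 7.49 against 16.9 and 12.8. In these 3 cases the old rats were the highest of the 3 groups. For Cdkn1a the groups overlapped in all 7 classes with 2 rats each on the scale of the fit.

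**Figure D4:**
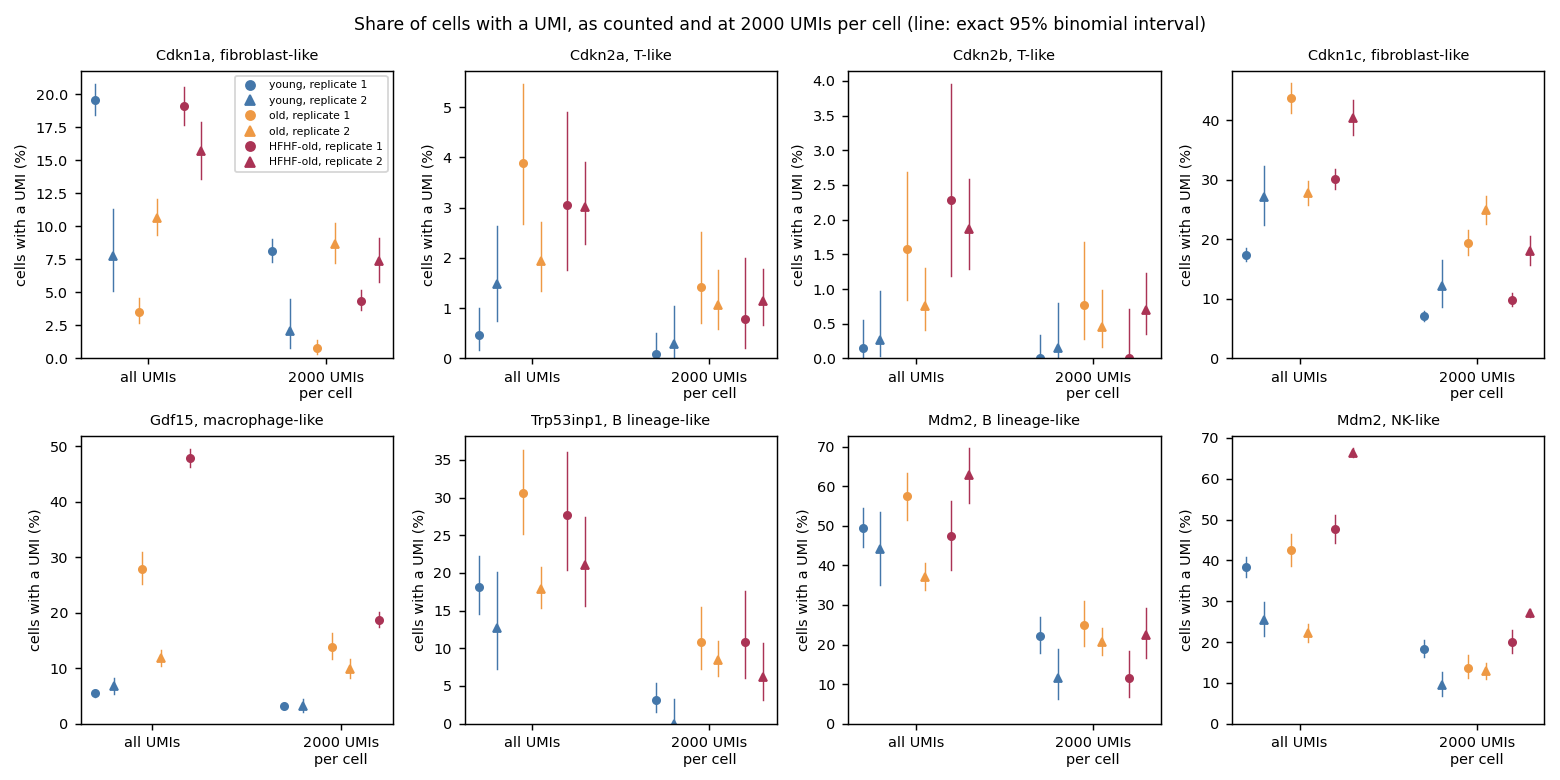
Share of cells with a UMI for 8 pairs of a gene and a class, from all UMIs and at 2000 UMIs per cell, one point per rat with its exact 95% binomial interval (counting error only). The Gdf15 shares of macrophage-like cells fall from 47.9 to 18.8% in HFHF-old replicate 1 and from 11.8 to 9.84% in old replicate 2, and the old rats stay above the young rats on both scales.

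The share of cells with a UMI depended on depth for every gene. In T-like cells a Cdkn2a UMI was found in 0.460 and 1.48% of cells in young, 3.89 and 1.93% in old and 3.04 and 3.01% in HFHF-old rats, and at 2000 UMIs per cell in 0.0898 and 0.289, 1.42 and 1.06, and 0.781 and 1.13%. In fibroblast-like cells a Cdkn1c UMI was found in 17.4 and 27.1, 43.7 and 27.8, and 30.1 and 40.4%, and at equal depth in 7.10 and 12.1, 19.4 and 24.9, and 9.87 and 18.1%. In NK-like cells the Mdm2 share was 38.4 and 25.5, 42.5 and 22.1, and 47.8 and 66.4%, and at equal depth 18.3 and 9.38, 13.8 and 12.9, and 20.0 and 27.2%. Old replicate 2, the shallowest library, moved from below both young rats to between them in this last case. For comparison, acinar-like cells held an Mdm2 UMI in 4.04, 3.28, 2.43, 0.435, 4.78 and 9.38% of cells at that depth and a Cdkn2a UMI in 0 to 0.123%.

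Of the lists of related genes, the proliferation genes moved most evenly by age. Their summed level was lower in both old than in both young rats in 10 of 13 classes and higher in 0 (of all tests of single genes 17.9% were separated downward and 17% upward). The median ratio was 0.466, and none of the 178 tests of single genes of this list was called by edgeR, although 30.9% had an unadjusted p under 0.05 (6.39% of all tests). In B lineage-like cells the sum was 1005 and 1152 CPM in young and 317 and 248 in old rats, and in macrophage-like cells 189 and 359 against 146 and 109. The list of inhibitor partners (CDKs, cyclins, the retinoblastoma family and other CDK inhibitors) was lower in 7 classes and higher in 1. Other p53 targets and regulators were higher in 6 and lower in 1, with a median ratio of 1.11, but 5.76% of their single tests had an unadjusted p under 0.05, no more than the 6.39% of all tests. The ATF4 and CHOP stress genes were likewise higher in 6 and lower in 1, with a median ratio of 1.30 and 20.1% of tests. In macrophage-like cells, where Gdf15 was highest, the stress genes summed to 763 and 497 in young, 834 and 950.5 in old rats and 1301 in HFHF-old replicate 1. Secreted factors ascribed to senescent cells were higher in 2 classes and lower in 3, and among them only Hgf, the hepatocyte growth factor, was called, with a mean of 2.05 CPM in old and 26.5 in young rats in T-like cells (log2 fold change -3.68, SE 0.369, edgeR adjusted p = 0.0191). Among imprinted growth genes Mest fell in the same class, from a mean of 33.5 in young to 1.42 CPM in old rats (log2 fold change -4.53, SE 0.387, edgeR adjusted p = 0.0163). The T and innate lymphoid make-up of that class, given above, moved with both genes, and its part was not tested. The sums of the imprinted genes were lower in 5 classes and higher in 0, while their single tests had a median log2 fold change of -0.008. Genes of the dissociation response had a median log2 fold change of 0.52 and an unadjusted p under 0.05 in 25.4% of tests. Their sums were higher in 2 classes, B lineage-like and fibroblast-like cells, and lower in 1, beta-like cells, and 1 of them, Nr4a1, was called in mesothelial-like cells with 1 young rat.

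Between HFHF-old and old rats the sums in 7 classes were higher in 5 and lower in 0 for the dissociation response, with a median ratio of 1.47, in 4 and 0 for imprinted genes (median log2 fold change of their single tests 0.019), in 3 and 0 for the stress genes and in 3 and 1 for the p53 list, of whose single tests 8.14% had an unadjusted p under 0.05 (8.16% of all tests) with a median log2 fold change of -0.029. The sums of the proliferation genes, the inhibitor partners and the secreted factors were each higher in 2 and lower in 0. Of all tests of single genes in these classes, 20.6% were separated upward and 21.4% downward. The 3 single genes called, Mki67, Tpx2 and Top2a, were proliferation genes in mesothelial-like cells, where the HFHF-old group was 1 rat with 13 cells. The dissociation sums were separated upward in 4 of the 6 classes in which Mdm2 was, namely NK-like, T-like, endothelial-like and fibroblast-like cells, and also in B lineage-like cells, where Mdm2 was lower, and their part in the Mdm2 values was not tested.

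Cells with and without a UMI of the senescence markers Cdkn1a or Cdkn2a were also compared in their level of the proliferation genes, and the direction varied with the class. In T-like cells the proliferation genes made up 2945 and 3796 CPM in the Cdkn2a-positive cells of the young rats, 1306 and 3636 in those of the old rats and 746 and 1120 in those of the HFHF-old rats, and in cells without a Cdkn2a UMI 524 and 694, 295 and 409, and 541 and 278. The Cdkn2a-positive cells were few, at 6 and 11 in young, 32 and 33 in old and 16 and 55 in HFHF-old rats. The positive cells were higher in 6 of 6 rats, and in 5 of 6 when set against negative cells at least as deep as the median positive cell, since a cell with more UMIs is more likely to show any transcript. These are called the deeper negative cells below. Their depth had no upper limit, so they were not matched in depth to the positive cells. For Cdkn1a the T-like cells were higher in 6 of 6 rats by either comparison, on 7 to 47 positive cells per rat. In NK-like cells the Cdkn2a-positive cells were higher in 4 of the 4 rats with at least 5 such cells, among them 239 cells of HFHF-old replicate 2 at 2306 against 421 CPM, and higher than the deeper negative cells in 3 of 4. In fibroblast-like cells the Cdkn2a-positive cells were higher in 5 of 5 rats, on 8 to 24 cells per rat, and higher than the deeper negative cells in 4 of 5. Cdkn1a-positive cells were higher in 6 of 6 rats in fibroblast-like cells, 5 of 5 in NK-like and 5 of 5 in macrophage-like cells, and higher than the deeper negative cells in 6, 5 and 4 of these. In beta-like cells the Cdkn1a-positive cells were higher in 4 of 5 rats, and in 5 of 5 against the deeper negative cells. The direction was not shared by all classes, with Cdkn2a-positive cells higher in 1 of 4 rats in beta-like and 0 of 3 in PP-like cells, and Cdkn1a-positive cells in 1 of 5 in ductal-like, 1 of 5 in PP-like and 2 of 6 in acinar-like cells. Against the deeper negative cells these counts were 2 of 4 and 1 of 3 for Cdkn2a, and 1 of 5, 3 of 5 and 3 of 6 for Cdkn1a. In smooth muscle-like cells the Cdkn1a-positive cells were higher in 3 of 4 rats, but lay below the deeper negative cells in each of the 3 rats that had any, at 83.6 against 151, 182 against 204 and 246 against 339 CPM. This comparison and the classes named were chosen after the values were seen and are given without a test.

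**Figure D5:**
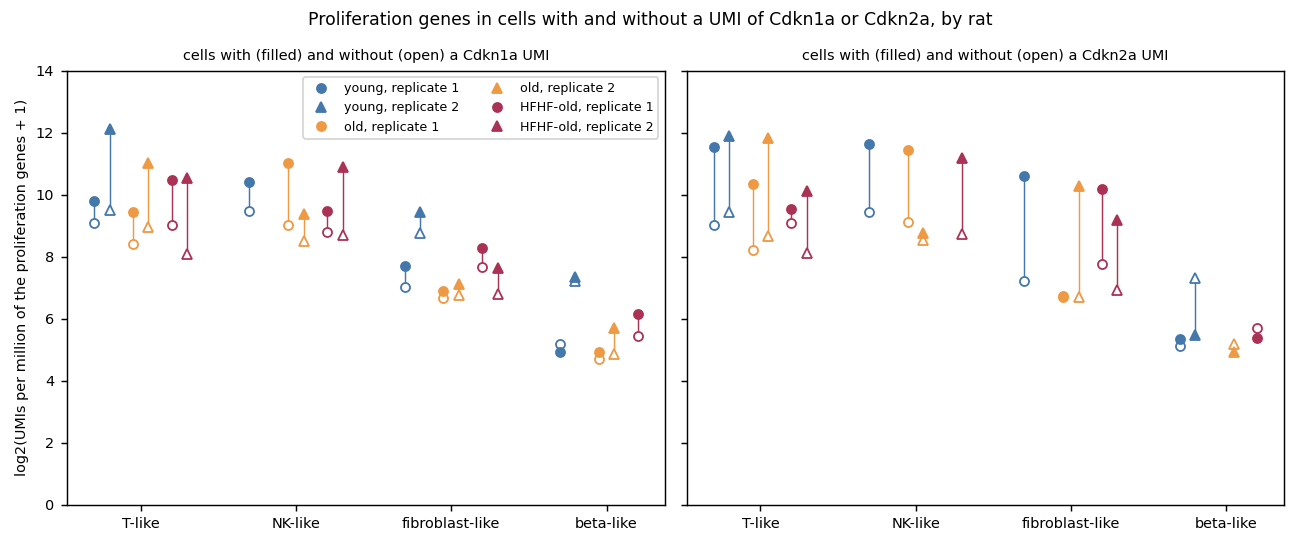
Summed level of 17 proliferation genes, as log2(CPM + 1), in cells with (filled) and without (open) a UMI of Cdkn1a (left) or Cdkn2a (right), joined for each rat with at least 5 positive cells. In T-like cells the filled points lie above the open points in 6 of 6 rats for both genes, and in beta-like cells in 4 of 5 rats for Cdkn1a and 1 of 4 for Cdkn2a.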

How the data were processed

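Per the labels and headers, the authors made libraries with the 10x Genomics 3' kit and ran Cell Ranger on the rat build Rnor_6.0. The deposited values are counts of UMIs per gene and barcode, with no normalization (file headers name Cell Ranger 5.0.0). Barcodes with under 200 genes, over 25% mitochondrial UMIs or in the top 1% of gene number were left out. Cells were clustered with scanpy 1.11.5 and leidenalg 0.10.2 (2000 variable genes without the 7 genes and listed genes, 10 components, 15 neighbours, resolution 1). A cluster was named from at least 3 and 50% of a marker list, and stayed unnamed with over 99% of its cells from 1 library. B and plasma markers were counted as 1 lineage, set after the clusters were seen, and endocrine-like cells were divided by a hormone at least 2 times the next. Doublets and free RNA were left in.

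UMIs were summed per rat and class (at least 10 cells) and tested with edgeR 4.0.16 (TMM, filterByExpr, glmQLFit) in 1 fit of 6 rats per class, with p-values adjusted by Benjamini-Hochberg over all genes of a class. SEs were derived from the F statistics. DESeq2 1.42.0 was an alternative. Groups were called separated on TMM-scaled values. Library totals were 77387928 to 166875258 UMIs. The fits were tested on simulated data. Fold changes were named where groups of 2 rats did not overlap and the unadjusted p was under 0.05, at most 15 per comparison, with up to 4 called genes per list and the 3 most alike genes per member, of which 1 or 2 are printed. The genes and lists were chosen with earlier results of these data known.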

Additional observations from a re-analysis of the deposited data

Results flagged for a closer look

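In 5 cases a gene was separated between groups in one class in the direction opposite to other classes, and in none was the difference between classes tested. Cdkn1a was lower in old than in young rats in ductal-like cells (log2 fold change -0.82). It was higher in 7 other classes on the scale of the fit and in 5 in plain CPM. Cdkn1c was lower in old rats in beta-like cells (-0.66) and higher in 4 other classes, and Trp53inp1 was lower in old rats in macrophage-like cells (-1.14) and higher in 2 others. Between HFHF-old and old rats, Mdm2 was lower in B lineage-like cells (-0.90) and higher in 6 other classes, and Trp53inp1 was lower in B lineage-like cells (-0.62) and higher in T-like cells, although in the B lineage-like cells it was separated on the scale of the fit and not in plain CPM.

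The 7585 cells of unnamed clusters, which enter no comparison, held all 7 genes above the limit that a count of 0 allows (0.0858 CPM, UMIs per 1000000 UMIs). Their levels were 29.0 CPM for Cdkn1a, 0.944 for Cdkn2a, 1.06 for Cdkn2b, 114 for Cdkn1c, 11.96 for Gdf15, 12.02 for Trp53inp1 and 65.3 for Mdm2. The Cdkn1c value rests on the cluster of 1835 cells from old replicate 2, which held 3749 of its 3981 UMIs in these clusters.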

How the results depend on the processing

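None of the 7 genes was called as reported, and the count of their calls rose under some settings. Between old and young rats it was 3 with DESeq2 (Mdm2 in B lineage-like, Cdkn2a in T-like and Gdf15 in macrophage-like cells), 14 without the filter on low counts, 2 with doublets left out, 1 without the top 1% filter and 1 without macrophage-like cluster 16 (an alternative chosen after seeing the data), and 0 to 1 when each rat was left out in turn. Between HFHF-old and old rats it was 2 with DESeq2, 4 without the low filter, 2 with free RNA subtracted and 0 to 1 when each rat was left out. Gdf15 in macrophage-like cells was called for old against young rats in 7 of 19 settings, among them without young replicate 2 (adjusted p = 0.0172) and with an adjusted p of 4.85e-20 to 0.181 over the 19, while without old replicate 1 the call was Cdkn1a in PP-like cells and without HFHF-old replicate 2 Gdf15 in acinar-like cells. Between HFHF-old and old rats the call without HFHF-old replicate 1 was Gdf15 in acinar-like cells, lower in the remaining HFHF-old rat, which had no UMI. The counts over all genes were 192 and 48 as reported, 1632 and 1016 with DESeq2, and 5415 and 5057 without the low filter, 298 and 35 at resolution 0.5, 293 and 149 with doublets left out, 175 and 4643 with free RNA subtracted, 270 and 26 with at least 50 cells, 103 and 108 without the top 1% filter, and 224 to 2799 and 76 to 657 when each rat was left out. The cause was not tested. Of 294 settings of 16 named fold changes none was reversed, 274 stayed on the same side of the threshold and 20 passed it. The size moved by over 1.5 times in 16 of them. Without young replicate 1 the log2 fold change in B lineage-like cells was 2.35 for Mdm2, 2.55 for Trp53inp1 and 7.40 for Cdkn2a (against a rat at 0), and in T-like cells 2.11 for Cdkn1a. Without young replicate 2 Cdkn2a was 2.91 in T-like and 2.67 in PP-like cells, and without old replicate 2 Cdkn1a was 1.10 in PP-like, Cdkn2a 2.03 in B lineage-like and Gdf15 3.07 in alpha-like cells. With doublets left out Mdm2 was 2.35 and Trp53inp1 3.11 in B lineage-like cells, with free RNA subtracted Cdkn1c was 0.71 in smooth muscle-like and Cdkn2b 3.66 in T-like cells, without the top 1% filter Cdkn2a was 7.90 in T-like and Cdkn1a 1.16 in PP-like cells, and at resolution 2 Cdkn1a was 0.22 in T-like cells.

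With a replicate block 1 of the tests was called for old against young rats (Gdf15, macrophage-like, adjusted p = 0.00181; 654 over all genes) and 2 for HFHF-old against old rats (Cdkn1c and Trp53inp1, macrophage-like; 248 over all genes). The correlations of the deviations of same-numbered rats ran from -0.152 to 0.309, and were over 0.1 for all 3 pairs of groups in NK-like and dendritic-like cells but not in the other 5 classes with 2 rats in every group. The labels tie the numbers to no shared batch or day, so the rats were taken to share only a number.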
